A study of Mus musculus with 12 samples.

Results

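Enteroendocrine cells are the rare hormone-making cells of the gut lining. The 10 genes described here serve hormone granules, peptide processing or amine synthesis, and were set beside single hormones as general endocrine-cell genes. They are the granins and secretogranins Chga, Chgb, Scg2, Scg3 and Scg5, the peptide-processing genes Pcsk1, Pcsk1n and Cpe, and the amine-synthesis genes Tph1 and Ddc. They were chosen by gene symbol and by no rule on their values, though with earlier results of these data known. All 10 were present among the 32587 gene rows of each library. Of the 10, 9 passed the filter on low values (at least 1 TPM in at least 3 libraries), as did 11952 of all rows, and Pcsk1n did not. TPM is a level scaled to transcript length and to the library's total.

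The study compared mouse small-intestinal organoids, cultured epithelial structures labelled as duodenum and as wild type (WT), after exposure to a bile acid or to the solvent DMSO. There were 3 libraries each of organoids with CA (cholic acid), with CDCA (chenodeoxycholic acid), with DCA (deoxycholic acid) and with DMSO, 12 in all. CA carries a hydroxyl group on each of the B and C rings of the steroid, CDCA lacks the hydroxyl on the C ring, and DCA lacks the hydroxyl on the B ring. All groups were grown in the same commercial organoid medium. The labelled dose of each acid is 50 mmol/L, a unit that could not be checked against the files, and the exposure is given as 2 days in one field and as 96 hours in another, so neither dose nor time is certain. Whether replicates were grown as separate cultures, or from separate mice, is not in the labels. The p-values therefore measure the spread of these libraries alone, which may be technical.

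Granins are acidic proteins that condense in the trans-Golgi network and help form the dense core of secretory granules, and chromogranin A is the usual general marker of endocrine cells. Prohormones are cut inside the maturing granule by prohormone convertases, and carboxypeptidases then trim the basic residues left at the cut ends. Enterochromaffin cells, the most abundant endocrine type of the gut, make serotonin from tryptophan, and other endocrine cells release peptides such as cholecystokinin, GIP, somatostatin, ghrelin and the products of proglucagon.

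The promoters of 4 members are shown because they span the range of responses described below. Pcsk1 and Chgb were lower with DCA, while Scg2 did not pass and Chga was not distinguishable from DMSO. Each of the 4 also holds the motif described next, Chga in its shorter form only. The cAMP response element, TGACGTCA, was found by a search of both strands in the RefSeq promoter windows (GRCm38.p6, 250 bases before to 50 bases after the start). Of the 10 members, 9 had a window, and Cpe is named only. The whole element was present in 3 of these 9, Chgb, Scg2 and Pcsk1, while 1.79% of all 32851 windows of this length held it. Its shorter form TGACG, which every whole element contains, was present in 7 of 9 members and in 20.8% of all windows. Here and below a member counts if any of its windows matched, while the shares are of single windows. The 9 members had 11 windows. The 250 bases before the start are printed 5′ to 3′ on the gene's strand, with matches to either form in capitals. They lie at chr12:102554691-102554940 (plus strand) for Chga, chr2:132781392-132781641 (plus strand) for Chgb, chr1:79440027-79440276 (minus strand) for Scg2 and chr13:75089607-75089856 (plus strand) for Pcsk1.
Chga: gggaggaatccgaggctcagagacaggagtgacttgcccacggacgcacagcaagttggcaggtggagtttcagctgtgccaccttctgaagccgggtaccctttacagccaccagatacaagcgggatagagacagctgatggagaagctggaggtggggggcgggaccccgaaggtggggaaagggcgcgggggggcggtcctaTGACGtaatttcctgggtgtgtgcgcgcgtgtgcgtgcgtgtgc
Chgb: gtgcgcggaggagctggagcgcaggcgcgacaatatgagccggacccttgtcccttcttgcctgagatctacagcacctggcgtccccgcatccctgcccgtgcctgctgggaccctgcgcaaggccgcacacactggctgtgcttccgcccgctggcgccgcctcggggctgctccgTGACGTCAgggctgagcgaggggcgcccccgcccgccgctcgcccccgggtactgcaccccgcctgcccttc
Scg2: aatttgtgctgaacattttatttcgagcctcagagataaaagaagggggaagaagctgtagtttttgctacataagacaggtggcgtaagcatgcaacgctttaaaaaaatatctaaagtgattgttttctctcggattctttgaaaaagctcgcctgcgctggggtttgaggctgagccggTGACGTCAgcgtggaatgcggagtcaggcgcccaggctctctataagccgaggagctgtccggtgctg
Pcsk1: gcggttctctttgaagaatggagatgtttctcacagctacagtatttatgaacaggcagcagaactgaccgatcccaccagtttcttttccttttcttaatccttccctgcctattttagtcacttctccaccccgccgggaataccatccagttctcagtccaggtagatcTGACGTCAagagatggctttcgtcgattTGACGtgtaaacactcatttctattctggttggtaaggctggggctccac

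The whole element lay 72 to 65 bases before the start of Chgb, 68 to 61 bases before that of Scg2 and 78 to 71 bases before that of Pcsk1. Chga held the shorter form only, 44 to 40 bases before its start. TATAAA was found in 2 of 9 members against 13.6% of all windows, and CAGATG, an E box of the type bound by NEUROD1, was found in none of the 9 against 17.2% of all windows. The inverted repeat bound by the bile acid receptor FXR was also found in none of the 9, and in 0.0396% of all windows. These matches describe letters in a window and say nothing of binding.

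The libraries summed to between 889156 and 936841 TPM, and between 11464 and 11711 rows reached 1 TPM in each. Read depth is unknown. Mitochondrially encoded rows took 14.0% ± 0.389 of the total with CA, 15.9% ± 2.02 with CDCA, 11.8% ± 0.814 with DCA and 17.2% ± 2.74 with DMSO (SD, n = 3 each). In CDCA replicate 3, a list of 14 stem cell markers summed to 394 TPM, against 736 and 856 TPM in the other CDCA libraries. In DMSO replicate 1 the same list summed to 571 TPM, against 872 and 1136 TPM in the other DMSO libraries. CDCA replicate 3 stood apart from its group in this way, while DMSO replicate 1 was the lowest of 3 widely spread libraries. Other libraries stood apart in a list of 9 Paneth cell markers. There DMSO replicate 3 summed to 8821 TPM, against 5403 and 5015 TPM, and CDCA replicate 1 to 8078 TPM, against 5608 and 5369 TPM. Results that rest on CDCA replicate 3 or DMSO replicate 1 are given with and without them. The epithelial label was checked with 17 neuron and glia markers, which summed to 9.93 to 13.9 TPM in any library with Hand2 at 0 in all 12. Of these markers 5 passed the filter on low values. A further 18 mesenchyme, endothelial and immune markers summed to 9.78 to 13.3 TPM, with Dcn, Lum and Cdh5 at 0 in all 12, and 3 passed the filter.

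The members covered a wide range of levels in DMSO organoids. Chgb led with 533 ± 44.7 TPM and was followed by Chga at 132 ± 7.56 TPM (SD, n = 3 each, here and for the other DMSO levels). Cpe stood at 54.7 ± 8.29 TPM, above Ddc at 33.4 ± 3.45 TPM and Scg2 at 32.4 ± 5.12 TPM, whose libraries overlapped. Tph1 at 20.9 ± 3.77 TPM overlapped Pcsk1 at 20.5 ± 2.06 TPM. Scg5 at 9.73 ± 2.12 TPM overlapped Scg3 at 6.92 ± 0.814 TPM, and Pcsk1n was lowest at 0.682 ± 0.270 TPM. Chgb alone made up 60.0% of the members' summed level with DCA, 63.9% with CDCA, 63.3% with CA and 63.1% with DMSO. The sum was 862 ± 58.4 TPM with CA, 812 ± 76.9 TPM with CDCA, 686 ± 47.0 TPM with DCA and 844 ± 65.5 TPM with DMSO (SD, n = 3 each). The 3 DCA libraries lay between 639.5 and 733 TPM, below all DMSO libraries, which lay between 796 and 919 TPM. That separation rested on Chgb. Without Chgb the sum lay between 257 and 291 TPM with DCA and between 286 and 334 TPM with DMSO, with overlap. In bulk RNA, fewer cells of a type and less RNA per cell cannot be told apart, here and in every result that follows.

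**Figure D1:**
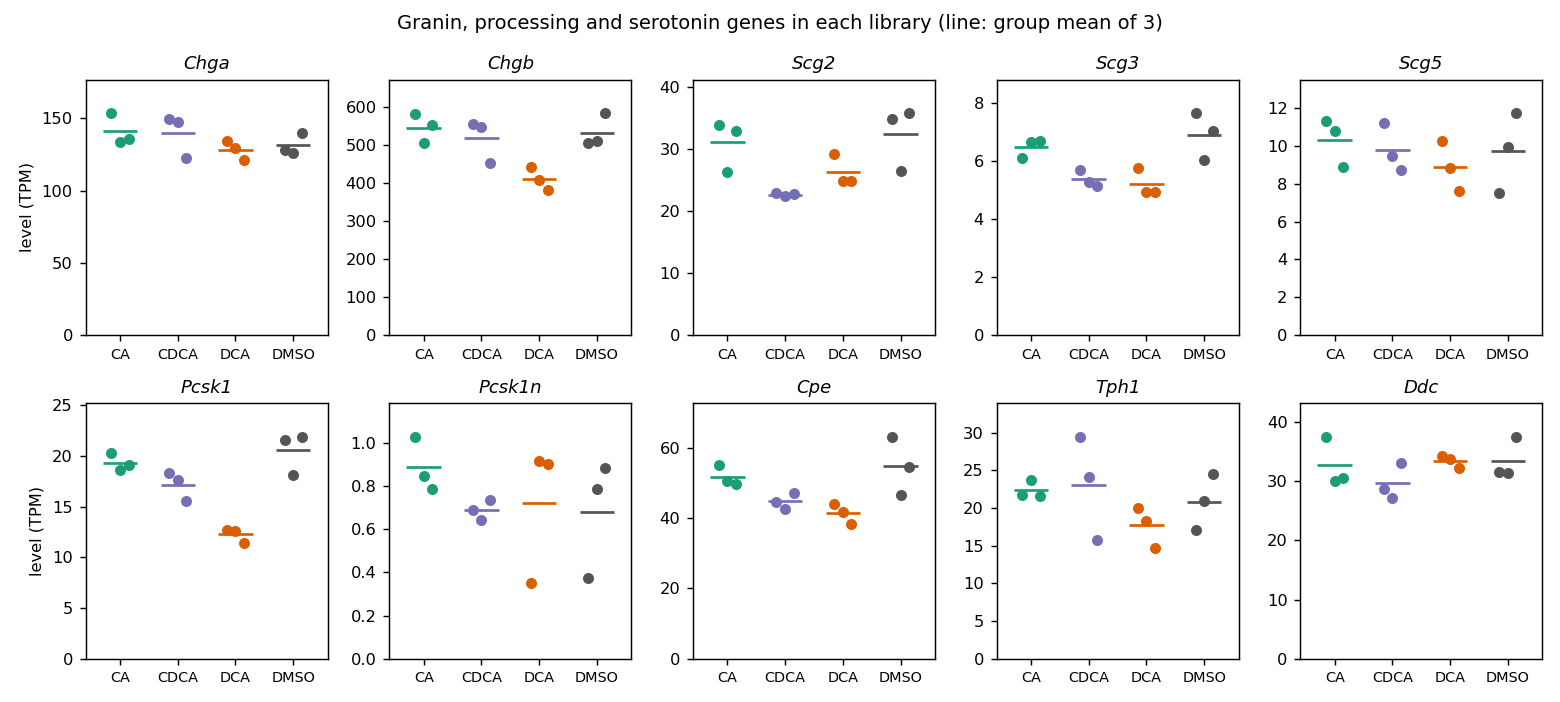
Level in TPM of each of the 10 members in each library, by group (points are libraries, the line is the mean of 3, and each panel has its own linear axis from 0). Pcsk1 and Chgb with DCA sit below every other library, while Chga overlaps in all 4 groups.

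Members passed the test against DMSO with DCA, and with neither of the other acids in any alternative run. Pcsk1, Chgb, Cpe and Scg3 fell, Chga, Scg2, Scg5, Tph1 and Ddc did not pass, and no member rose. The 4 lower members of 9 tested stand beside 19.2% of all 11952 rows called lower in this comparison and 18.8% called higher, 38% in all. The members' median difference was -0.28 on the scale of log2(TPM + 1), against -0.02 over all rows tested, and 8 of 9 differences were negative. For 4 members every DCA library lay below every DMSO library, as it did for 26% of all rows. Without DCA replicate 3 the count of lower members was 2, Pcsk1 and Chgb. With mitochondrially encoded and ribosomal RNA rows left out and the rest rescaled, the median over all rows was -0.15. Relative to that median Pcsk1 stood at -0.69, Cpe at -0.38, Chgb at -0.36 and Scg3 at -0.34, and these 4 passed again, as did Scg2. Over all rows the rescaled fit called 5756 in either direction, against 4545 in the main fit.

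Among the granins, Chgb, the more abundant of the chromogranins, read 443, 409 and 383 TPM with DCA, against 504, 509.9 and 584 TPM with DMSO. The highest DCA library lay below the lowest DMSO library. Chgb fell by 0.37 on the log2 scale (SE 0.09, 95% interval -0.57 to -0.17, limma adjusted p = 0.00773).

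Chga, the other chromogranin, read 134, 129 and 121 TPM with DCA, against 128, 126 and 140.2 TPM with DMSO. The groups overlapped in part, with the lowest library in DCA and the highest in DMSO. The difference was -0.04 (95% interval -0.23 to 0.16, limma adjusted p = 0.784), so the interval still allows a difference in either direction. The difference between the 2 chromogranins was set out as the ratio of Chgb to Chga in each library, which was 3.30, 3.17 and 3.16 with DCA against 3.93, 4.05 and 4.17 with DMSO. These ratios did not overlap and differed by -0.34 in log2 (exact two-sided permutation test, p = 0.1, the smallest that 3 against 3 can give).

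Scg3, a secretogranin that binds chromogranin A and granule membranes, read 5.76, 4.93 and 4.93 TPM with DCA, against 7.67, 6.05 and 7.04 TPM with DMSO. No DCA library reached a DMSO library. Scg3 fell by 0.35 (95% interval -0.58 to -0.12, limma adjusted p = 0.0221). That call was lost without DMSO replicate 1 (adjusted p = 0.0734), without DCA replicate 2 (0.0825) and without DCA replicate 3 (0.0779), all in limma. It was also lost with DMSO replicate 1 and CDCA replicate 3 both left out (adjusted p = 0.0721) and with only the 6 libraries compared (adjusted p = 0.0657).

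Scg2, the precursor of the peptide secretoneurin, read 29.2, 24.8 and 24.9 TPM with DCA, against 34.8, 26.5 and 35.8 TPM with DMSO. DMSO replicate 2 lay inside the DCA range. The difference of -0.28 (95% interval -0.56 to -0.01) did not pass over all rows, with a limma adjusted p of 0.0958, and without DMSO replicate 2 it was -0.42 with an adjusted p of 0.0203. Scg5, which encodes 7B2, the chaperone of the convertase Pcsk2, read 10.3, 8.81 and 7.63 TPM with DCA, against 7.51, 9.94 and 11.7 TPM with DMSO. The 2 groups covered nearly the same range, with a difference of -0.11 (95% interval -0.45 to 0.24, limma adjusted p = 0.633). Pcsk2 itself did not pass the filter and reached at most 0.131 TPM in any library; it was looked up after the values of Scg5 were seen.

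Among the processing genes, Pcsk1, the convertase that cuts prohormones after basic residues, read 12.7, 12.6 and 11.4 TPM with DCA, against 21.6, 18.2 and 21.9 TPM with DMSO. The 3 DCA libraries lay close together and well below all others in the study. Pcsk1 fell by 0.70 (SE 0.10, 95% interval -0.91 to -0.48, limma adjusted p = 0.000254), the largest difference of any member in any comparison.

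Cpe, the carboxypeptidase that trims the peptides after the cut, read 44.0, 41.9 and 38.3 TPM with DCA, against 63.1, 46.6 and 54.5 TPM with DMSO. All DCA libraries lay below all DMSO libraries, by a small margin from DMSO replicate 2. Cpe fell by 0.39 (95% interval -0.61 to -0.16, limma adjusted p = 0.0117), and the call was lost without DCA replicate 3 (adjusted p = 0.0515).

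Pcsk1n, which encodes proSAAS, an inhibitor of the Pcsk1 product, read 0.353, 0.917 and 0.900 TPM with DCA, against 0.375, 0.785 and 0.885 TPM with DMSO. It is too low here for a statement about its direction. In the fit without the filter on low values its difference was 0.03 (95% interval -0.32 to 0.38, limma adjusted p = 0.957).

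Among the amine genes, Tph1, the rate-limiting enzyme of serotonin synthesis in enterochromaffin cells, read 20.0, 18.3 and 14.7 TPM with DCA, against 17.0, 21.0 and 24.6 TPM with DMSO. The groups overlapped and the interval was wide. Its difference was -0.22 (95% interval -0.64 to 0.20, limma adjusted p = 0.396). Without both DMSO replicate 1 and CDCA replicate 3 it was -0.35 and passed narrowly (limma adjusted p = 0.0498). Ddc, the decarboxylase that completes serotonin and dopamine synthesis and is also made by absorptive cells, read 34.3, 33.7 and 32.3 TPM with DCA, against 31.5, 31.4 and 37.4 TPM with DMSO. Its mean was the same to 3 digits in both groups, 33.4 TPM, with a difference of 0.00 (95% interval -0.23 to 0.24, limma adjusted p = 0.982).

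**Figure D2:**
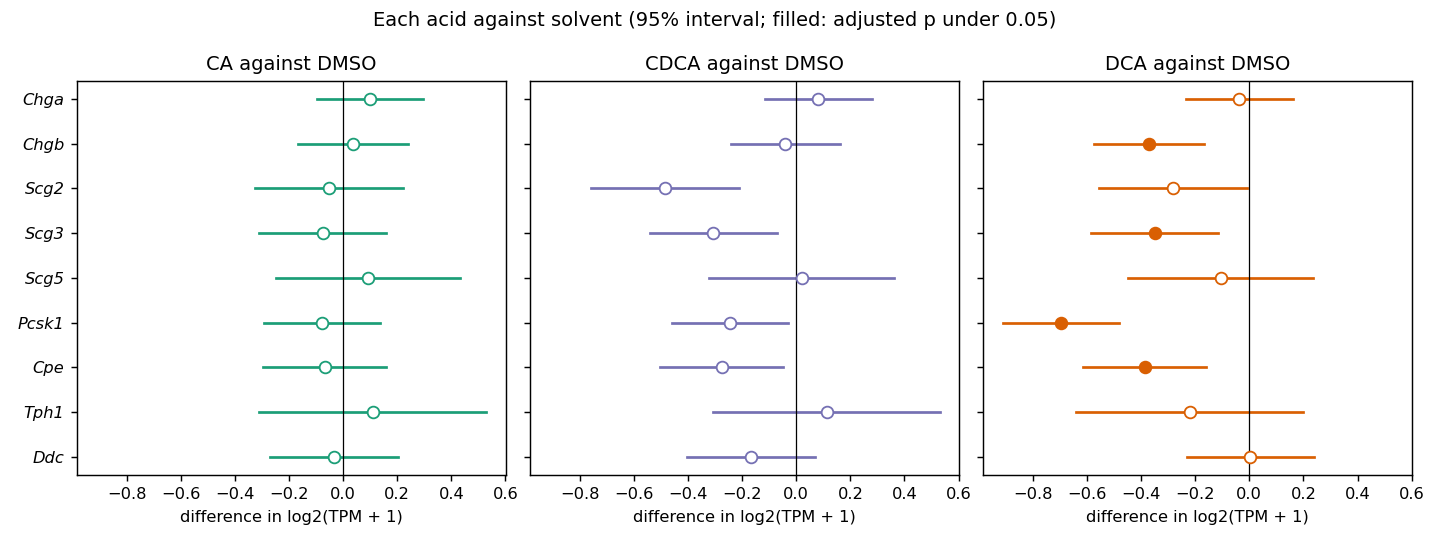
Difference in log2(TPM + 1) of each tested member for each acid minus DMSO, with its 95% interval (filled points have an adjusted p under 0.05). Only DCA has filled points, for Pcsk1, Chgb, Cpe and Scg3, with Pcsk1 farthest from 0 at -0.70.

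With CDCA no member passed the test against DMSO. At an unadjusted p under 0.05, 4 members were lower with CDCA and none higher, and 1168 of all 11952 rows met that threshold in either direction. Over all rows 0.594% were called, 0.0837% lower. The members' median difference was -0.17, against 0.02 over all rows. For 2 members, Scg2 and Scg3, every CDCA library lay below every DMSO library, as was so for 3.03% of all rows, and no member lay above DMSO in this way, beside 6.97% of all rows.

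Scg2 read 22.9, 22.4 and 22.8 TPM with CDCA, against 34.8, 26.5 and 35.8 TPM with DMSO. The CDCA libraries were nearly identical and all below the DMSO range. The difference was -0.48 (95% interval -0.76 to -0.21), with an unadjusted limma p of 0.00219 and an adjusted p of 0.146. Scg3 read 5.70, 5.30 and 5.15 TPM with CDCA, against 7.67, 6.05 and 7.04 TPM with DMSO, a difference of -0.31 (95% interval -0.54 to -0.07, limma adjusted p = 0.342).

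Pcsk1 read 18.3, 17.6 and 15.6 TPM with CDCA, against 21.6, 18.2 and 21.9 TPM with DMSO, and CDCA replicate 1 overlapped DMSO replicate 2. Its difference was -0.24 (95% interval -0.46 to -0.03, limma adjusted p = 0.43). Cpe read 44.6, 42.7 and 47.1 TPM with CDCA, against 63.1, 46.6 and 54.5 TPM with DMSO, with a difference of -0.27 (95% interval -0.50 to -0.05, limma adjusted p = 0.391). Both intervals lie below 0 taken alone, and neither difference passed over all rows.

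The chromogranins showed no shift past their spread. Chgb read 557, 548 and 453 TPM with CDCA, against 504, 509.9 and 584 TPM with DMSO, a difference of -0.04 (95% interval -0.24 to 0.16, limma adjusted p = 0.960). Chga read 149.6, 147 and 122 TPM with CDCA, against 128, 126 and 140.2 TPM with DMSO, a difference of 0.08 (95% interval -0.12 to 0.28, limma adjusted p = 0.875). CDCA replicate 3 was the lowest CDCA library for both, and for Tph1 as well.

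Tph1 read 29.4, 24.0 and 15.8 TPM with CDCA, against 17.0, 21.0 and 24.6 TPM with DMSO. The CDCA libraries spread past the DMSO range on both sides. The difference was 0.11 (95% interval -0.31 to 0.53). Scg5 differed by 0.02 (95% interval -0.32 to 0.36) and Ddc by -0.17 (95% interval -0.40 to 0.07, limma adjusted p = 0.73). Pcsk1n read 0.691, 0.641 and 0.735 TPM with CDCA, within the range of the DMSO libraries.

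With CA no member passed the test against DMSO, and none had an unadjusted p under 0.05. Over all rows 0.577% were called, 0.569% higher and 0.00837% lower. An unadjusted p under 0.05 was found for 1763 rows. The members' median difference was -0.03, against 0.03 over all rows, and every member's groups overlapped, while 11.8% of all rows lay higher and 5.21% lower in every CA library than in any DMSO library. Chga read 154, 134 and 135 TPM with CA, against 128, 126 and 140.2 TPM with DMSO, a difference of 0.10 (95% interval -0.10 to 0.30, limma adjusted p = 0.661). Chgb read 582, 505 and 552 TPM with CA, against 504, 509.9 and 584 TPM with DMSO, a difference of 0.04 (95% interval -0.17 to 0.24, limma adjusted p = 0.898). Pcsk1 read 20.3, 18.6 and 19.1 TPM with CA, against 21.6, 18.2 and 21.9 TPM with DMSO, a difference of -0.08 (95% interval -0.29 to 0.13, limma adjusted p = 0.757). These libraries were intermixed, and the intervals of all 3 genes span 0. Cpe at 51.8 ± 2.95 TPM, Scg2 at 31.1 ± 4.15 TPM, Scg3 at 6.49 ± 0.339 TPM and Scg5 at 10.3 ± 1.27 TPM with CA each averaged within the range of their DMSO libraries (SD, n = 3 each). So did Tph1 at 22.3 ± 1.23 TPM and Ddc at 32.7 ± 4.18 TPM. Pcsk1n averaged 0.887 ± 0.126 TPM with CA, against 0.682 ± 0.270 TPM with DMSO (SD, n = 3 each), with overlapping libraries.

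The 3 acids were given under the same labelled dose and time, so their libraries were also compared pairwise, in 3 pairs with p-values adjusted over all rows within each pair. With all libraries, Pcsk1 and Chgb were lower with DCA than with either other acid, and no other member passed in any pair. DCA and CA differ by the hydroxyl on the B ring. In that pair 2 of 9 members were called lower with DCA and none higher, beside 8.94% of all rows called lower and 5.79% called higher. Pcsk1 read 12.7, 12.6 and 11.4 TPM with DCA, against 20.3, 18.6 and 19.1 TPM with CA. The groups were far apart, and Pcsk1 fell by 0.62 with DCA relative to CA (95% interval -0.83 to -0.40, limma adjusted p = 0.00396). Chgb read 443, 409 and 383 TPM with DCA, against 582, 505 and 552 TPM with CA, and fell by 0.41 (95% interval -0.61 to -0.20, limma adjusted p = 0.0151). Without CA replicate 1, DCA replicate 2 or DCA replicate 3, left out in turn, the Chgb call was lost, with limma adjusted p-values up to 0.0577. Of the members that did not pass, Cpe differed by -0.32 (95% interval -0.54 to -0.09, limma adjusted p = 0.0601) and Scg3 by -0.27 (95% interval -0.51 to -0.04, limma adjusted p = 0.108). Cpe passed in the fit without DMSO replicate 1 (adjusted p = 0.0279) or DMSO replicate 2 (adjusted p = 0.0348). It also passed in limma with only the 6 libraries compared (adjusted p = 0.0149) and without CDCA replicate 3 and DMSO replicate 1 (0.0195). With mitochondrially encoded and ribosomal RNA rows left out it passed as well (limma adjusted p = 0.0165). Tph1 read 20.0, 18.3 and 14.7 TPM with DCA, against 21.7, 23.8 and 21.6 TPM with CA, without overlap, at a difference of -0.33 (95% interval -0.75 to 0.09, limma adjusted p = 0.273). In all 5 members did not overlap between these groups with DCA lower, as did 28.7% of all rows.

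DCA and CDCA are isomers that differ in which ring carries the hydroxyl. In this pair 2 of 9 members were called lower with DCA and none higher, beside 15% of all rows called lower and 12.8% called higher, 27.8% in all. Pcsk1 read 12.7, 12.6 and 11.4 TPM with DCA, against 18.3, 17.6 and 15.6 TPM with CDCA, and fell by 0.45 (95% interval -0.67 to -0.24, limma adjusted p = 0.00545). Chgb read 443, 409 and 383 TPM with DCA, against 557, 548 and 453 TPM with CDCA, and fell by 0.33 (95% interval -0.53 to -0.13, limma adjusted p = 0.0196). CDCA replicate 3 lay closest to the DCA libraries for both genes. The Chgb call was lost without any 1 of CDCA replicates 1 and 2 and DCA replicates 2 and 3, with limma adjusted p-values up to 0.0872. Scg2 lay on the other side, at 29.2, 24.8 and 24.9 TPM with DCA, against 22.9, 22.4 and 22.8 TPM with CDCA. Its groups did not overlap, as was so with DCA higher for 21.3% of all rows, but the difference of 0.20 (95% interval -0.07 to 0.47, limma adjusted p = 0.26) did not pass. Tph1 differed by -0.33 (95% interval -0.75 to 0.09, limma adjusted p = 0.223), and by -0.57 without CDCA replicate 3, where it passed with an adjusted p of 0.0154. For Scg3 the difference was -0.04 (95% interval -0.28 to 0.19), for Cpe -0.11 (95% interval -0.34 to 0.12) and for Chga -0.12 (95% interval -0.31 to 0.08).

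CDCA and CA differ by the hydroxyl on the C ring. No member passed in this pair, in which 0.0335% of all rows were called, 0.00837% higher and 0.0251% lower. There were 861 rows at an unadjusted p under 0.05. Scg2 was the member with an unadjusted p under 0.05, at 22.9, 22.4 and 22.8 TPM with CDCA, against 34.0, 26.3 and 33.0 TPM with CA. The groups did not overlap, with a difference of -0.43 (95% interval -0.70 to -0.16, limma adjusted p = 0.487). Pcsk1 differed by -0.17 (95% interval -0.38 to 0.05), Cpe by -0.21 (95% interval -0.43 to 0.02) and Chgb by -0.08 (95% interval -0.28 to 0.13). In all 4 members lay lower in every CDCA library than in any CA library, as did 6.47% of all rows, and none lay higher, beside 4.19% of all rows.

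**Figure D3:**
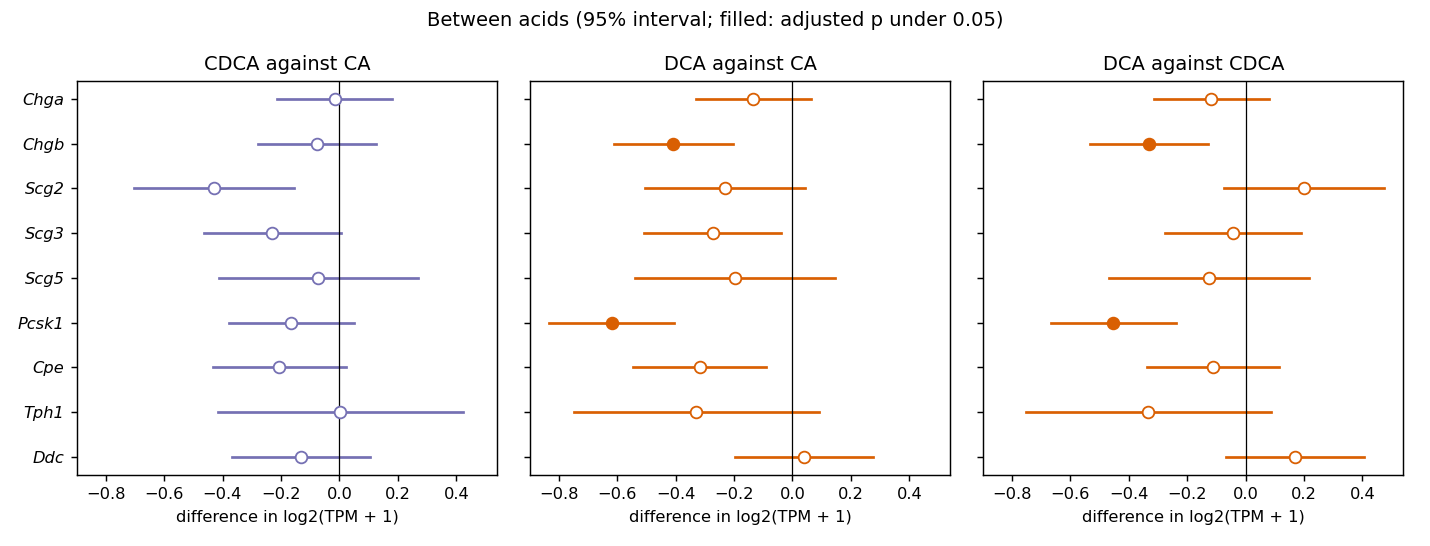
Difference in log2(TPM + 1) of each tested member between acids, with its 95% interval (filled points have an adjusted p under 0.05). Pcsk1 and Chgb are filled in both comparisons of DCA with another acid, and no point is filled for CDCA against CA.

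The single hormones were set beside the general genes by dividing each gene's TPM by the Chga TPM of the same library. Such a ratio shows whether a gene moved unequally with Chga, not which of the pair moved. For the hormones at 5 TPM or more on average, 9 per acid, 6 ratios lay lower in every DCA library than in any DMSO library and 2 lay higher. Of all other tested rows, set over Chga in the same way, 24.6% lay lower and 28.9% higher with DCA. With CDCA 5 hormone ratios lay lower and none higher, beside 8.41% and 2.92% of all rows. With CA 1 lay higher and none lower, beside 6.43% higher and 13.8% lower over all rows. All such ratios have an exact two-sided permutation p of 0.1, the smallest possible here, and the smallest adjusted value over the 27 hormone ratios was 0.193, so no ratio passed.

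Proglucagon, Gcg, stood at 1.11 ± 0.0383 times Chga with DCA and 1.12 ± 0.177 with CDCA, against 2.37 with DMSO (SD, n = 3 each). Gip stood at 1.41 ± 0.106 times Chga with DCA and 1.39 ± 0.0360 with CDCA, against 2.80 with DMSO. Somatostatin, Sst, stood at 1.25 ± 0.0611 with DCA and 1.20 ± 0.195 with CDCA, against 1.90 with DMSO. The DCA and CDCA ratios are set against the same DMSO libraries and were not tested against each other. Cholecystokinin, Cck, stood at 4.13 ± 0.182 with DCA and 6.15 ± 0.444 with CDCA, against 8.52 with DMSO. Pcsk1 followed the same order, at 0.0955 ± 0.00155 with DCA and 0.123 ± 0.00399 with CDCA, against 0.156 with DMSO (SD, n = 3 each). Ghrelin, Ghrl, stood at 1.92 ± 0.0757 with DCA and 2.01 ± 0.0845 with CA, against 1.49 with DMSO, above every DMSO library in all libraries with these acids. With CDCA its ratio of 1.49 ± 0.253 overlapped DMSO.

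Among the members themselves, 8 ratios to Chga were formed per acid, 24 in all, with a smallest adjusted value of 0.24. With DCA 4 lay lower in every library than in any DMSO library, those of Chgb, Scg3, Pcsk1 and Cpe, beside 24.6% of all rows. With CDCA 4 lay lower, those of Chgb, Scg2, Scg3 and Pcsk1, beside 8.41% of all rows. With CA 2 lay lower, those of Pcsk1 and Ddc, beside 13.8% of all rows. None lay higher with any acid, beside 28.9% of all rows with DCA, 2.92% with CDCA and 6.43% with CA. The Chgb ratio was 3.72 ± 0.00926 with CDCA, against 4.05 ± 0.121 with DMSO (SD, n = 3 each). Pcsk1 was thus lower relative to Chga in every library of every acid than in any DMSO library, and the acids share those DMSO libraries.

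**Figure D4:**
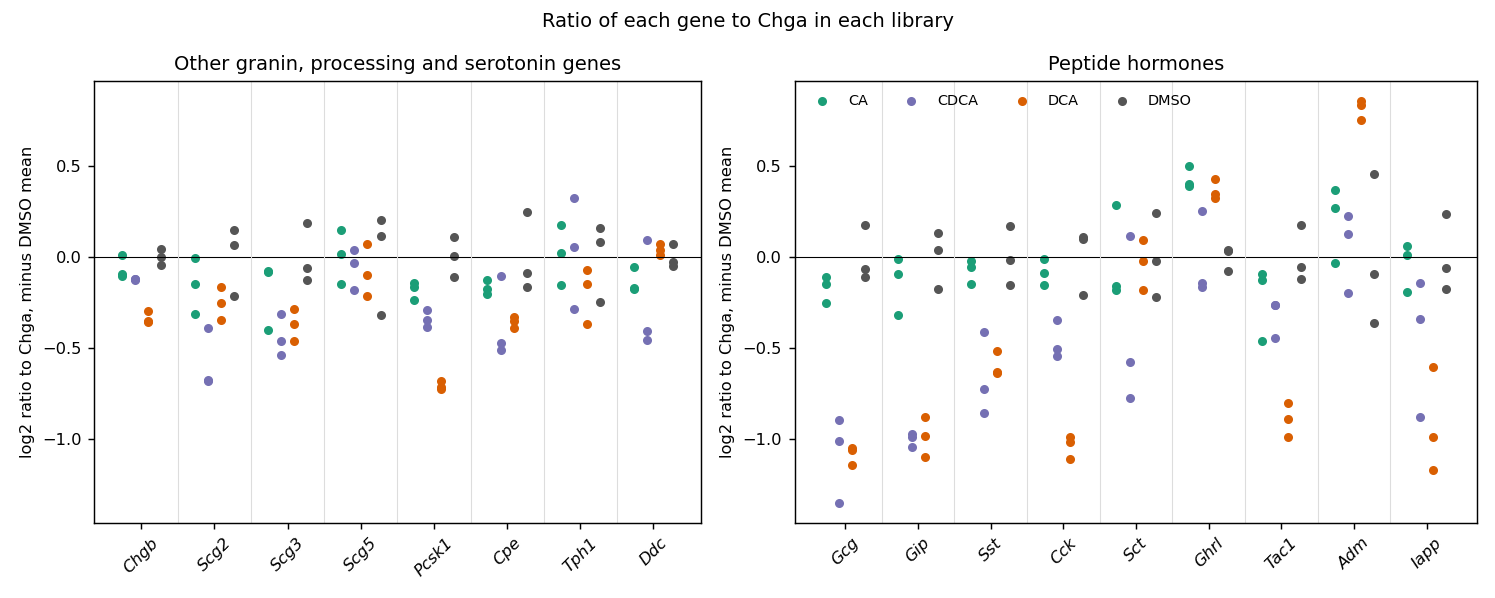
Ratio of each gene to Chga in each library as log2 minus the DMSO mean, for the members and for the hormones at 5 TPM or more (each point is a library, colored by group). The Pcsk1 points with DCA lie near -0.71, and those of Gcg and Gip with DCA and CDCA lie near -1 together.

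As direct levels, the 14 listed hormone genes summed to 1345 ± 93.5 TPM with DCA, 1690.0 ± 44.2 TPM with CDCA and 2445 ± 155 TPM with CA, against 2389 ± 316 TPM with DMSO (SD, n = 3 each). Of the 11 hormones tested, 7 fell and 3 rose with DCA, at a median of -0.77, beside 19.2% of all rows called lower and 18.8% called higher. Gcg fell by 1.12 (limma adjusted p = 3.12e-05), Cck by 1.07 (adjusted p = 3.12e-05), Gip by 1.02 (adjusted p = 0.000172), Tac1 by 0.92 (adjusted p = 0.000114) and Sst by 0.63 (adjusted p = 0.000393). Iapp fell by 0.80 (limma adjusted p = 0.00411) and Nts, neurotensin, by 0.77 (adjusted p = 0.0119). Ghrl rose by 0.33 (limma adjusted p = 0.00476), Adm by 0.66 (adjusted p = 0.00786) and Pyy by 0.65 (adjusted p = 0.0242), and Sct, secretin, at -0.07 did not pass (adjusted p = 0.786). The Pyy call was lost without DCA replicate 1, DCA replicate 3, DMSO replicate 2 or DMSO replicate 3, with adjusted p-values up to 0.102. With CDCA 3 of the 11 fell and none rose, at a median of -0.32, beside 0.0837% of all rows called lower and 0.51% called higher. The 3 were Gcg by 1.00 (limma adjusted p = 0.000705), Gip by 0.92 (adjusted p = 0.00656) and Sst by 0.58 (adjusted p = 0.0159). The Sst call was lost without CDCA replicate 1, CDCA replicate 2 or DMSO replicate 3, with limma adjusted p-values up to 0.0752, and with only the 6 libraries compared it was 0.144. The Gip call was lost without both DMSO replicate 1 and CDCA replicate 3 (limma adjusted p = 0.0564). With CA only Ghrl passed, higher by 0.53 (limma adjusted p = 0.0135), beside 0.569% of all rows called higher. That call was lost without any 1 of the CA libraries or DMSO replicate 2 (adjusted p up to 0.0788).

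Other genes of the secretory pathway were followed in lists. Their counts with DCA stand beside 19.2% of all rows called lower and 18.8% called higher. Of 14 tested of 16 enteroendocrine transcription factors, 6 fell and none rose with DCA, at a median of -0.43, and none passed with CDCA or CA. Neurog3, the factor that commits progenitors to the endocrine fate, fell by 1.00 (limma adjusted p = 0.000712), and Insm1, which acts after it, fell by 0.72 (adjusted p = 0.000375). Etv1 fell by 0.68 (limma adjusted p = 0.00173), Isl1 by 0.51 (adjusted p = 0.00442) and Lmx1a by 0.45 (adjusted p = 0.0425). The Lmx1a call was lost without DCA replicate 1, DCA replicate 2, DMSO replicate 2 or DMSO replicate 3 (adjusted p up to 0.177). Neurod1 differed by -0.18 and did not pass (limma adjusted p = 0.284). Their summed level was 46.9 ± 4.52 TPM with DCA, 63.6 ± 3.13 TPM with CDCA and 66.5 ± 0.713 TPM with CA, against 68.8 ± 5.01 TPM with DMSO (SD, n = 3 each).

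Of 14 tested of 18 other processing and granule genes, 4 fell and 2 rose with DCA, at a median of -0.16. These counts stand beside 19.2% of all rows called lower and 18.8% called higher. The 2 that rose were the convertases Pcsk5, by 1.08 (limma adjusted p = 0.000205), and Pcsk6, by 0.65 (adjusted p = 0.00227), which process secreted proteins in many cell types. Scgn, a calcium sensor of endocrine cells, fell by 0.49 (limma adjusted p = 0.00436), and Nucb2, the precursor of nesfatin, fell by 0.49 (adjusted p = 0.0115). Without DCA replicate 2 or 3, left out in turn, the count of lower genes was 2. Pam, which amidates peptide ends and was picked out after its values were seen, differed by 0.05 (limma adjusted p = 0.784). Of 20 tested of 22 regulated exocytosis genes, 8 fell and none rose with DCA, at a median of -0.10, beside the same shares of all rows. Cplx2, a complexin that regulates vesicle fusion, fell by 0.80 (limma adjusted p = 0.000623), and Rab27b, a granule docking GTPase, fell by 0.40 (adjusted p = 0.00849). The count of 8 was 3 without DCA replicate 2, 4 without DMSO replicate 3, and 5 without DCA replicate 1, DCA replicate 3 or DMSO replicate 2. Neither list had a member called with CDCA or CA.

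Of 12 tested of 16 serotonin and monoamine genes other than Tph1 and Ddc, 6 rose and 1 fell with DCA, at a median of 0.24. Over all rows 18.8% were called higher and 19.2% lower. None of these genes passed with CDCA or CA. With mitochondrially encoded and ribosomal RNA rows left out, 2 rose and 3 fell. The monoamine oxidases Maob and Maoa, which break amines down, rose by 1.36 (limma adjusted p = 0.00200) and 0.91 (adjusted p = 0.0025). Slc7a5, a subunit of an amino acid transporter that carries tryptophan, fell by 0.54 (limma adjusted p = 0.000653). The serotonin transporter Slc6a4, which absorptive cells also use and which was picked out after its values were seen, rose by 0.51 (limma adjusted p = 0.0122), a call lost without DCA replicate 1 and in the rescaled fit (adjusted p up to 0.0626). Slc18a1, the granule amine transporter of enterochromaffin cells, was picked out in the same way and differed by -0.05 (limma adjusted p = 0.765).

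Markers of other epithelial cells moved in the same libraries. Their counts stand beside 19.2% of all rows called lower and 18.8% called higher with DCA. With DCA 17 of 18 enterocyte markers rose, at a median of 1.36, and summed to 8182 to 10574.5 TPM, against 3040 to 4945 TPM with DMSO. Of 14 stem cell markers 13 fell, at a median of -1.36, and they summed to 208 to 232 TPM, against 571 to 1136 TPM with DMSO. Of 9 Paneth cell markers 8 fell, of 10 tested goblet cell markers 5 fell (9 in the rescaled fit or without DMSO replicate 2), and of 8 tested tuft cell markers 7 fell, the last at a median of -0.65. The part of these shifts in the lower member levels was not tested. Of the neuron and glia markers 1 of 5 tested fell with DCA (2 without DMSO replicate 1), and they summed to 9.93 to 10.8 TPM, against 12.3 to 12.8 TPM with DMSO, their part in the results also not tested.

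**Figure D5:**
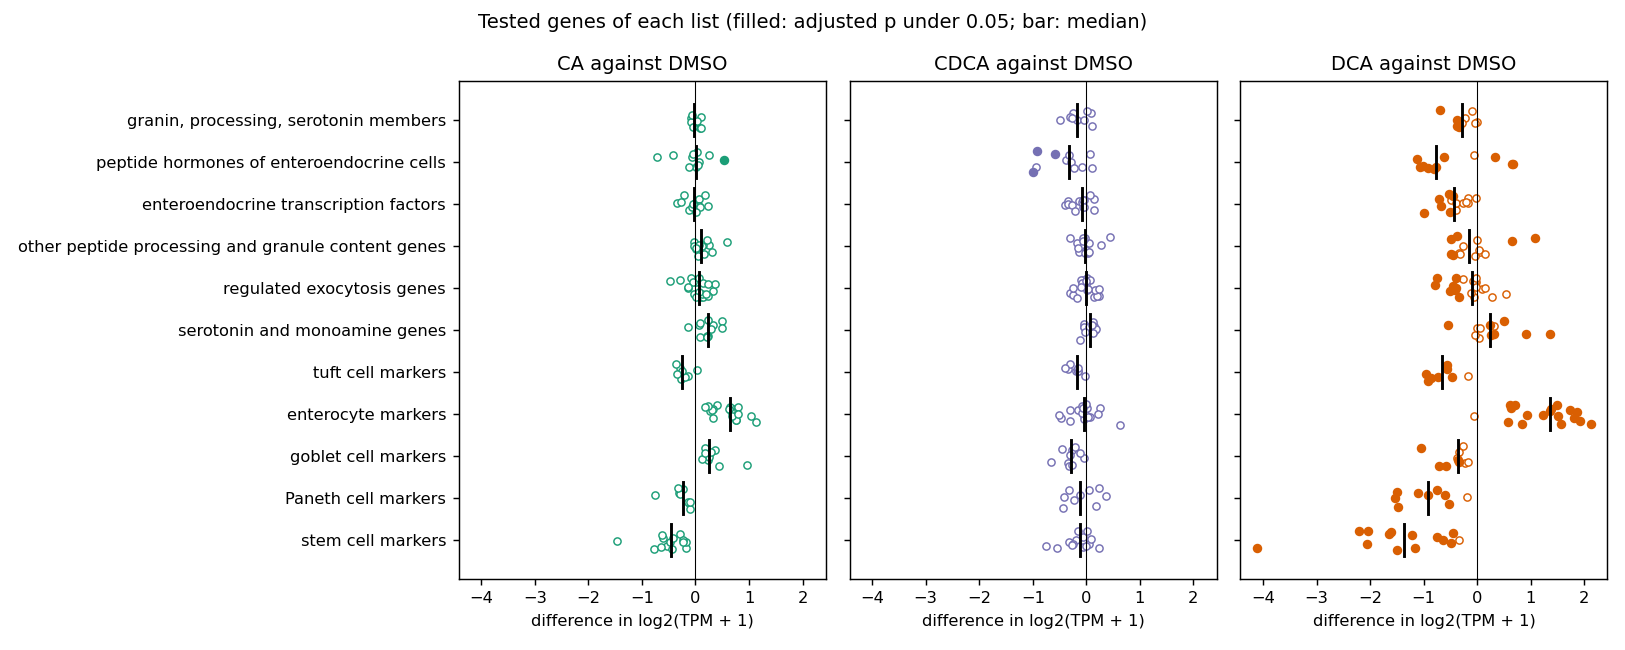
Difference in log2(TPM + 1) of every tested gene of each list for each acid minus DMSO (filled points have an adjusted p under 0.05, the bar is the list's median). With DCA the medians run from -1.36 for stem cell markers to 1.36 for enterocyte markers, with the members at -0.28.

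Across the 12 libraries the members did not move as 1 block, as described by Pearson correlations of log2(TPM + 1), in which the points share their group, and with it treatment. Chgb and Pcsk1 were most alike at 0.91, and Scg3 and Cpe followed at 0.88. Chga was most like Tph1, at 0.80, and was at 0.49 with Pcsk1. Ddc was at 0.59 with Scg2 and 0.31 with Cpe, its highest values, and at -0.05 with Chgb, -0.01 with Pcsk1 and -0.27 with Tph1. Of 10786 other genes compared, the one most like Pcsk1 was Cck at 0.98, followed by Crim1 at 0.97. The gene most like Chgb was Ecd at 0.95, followed by Ptprn2, a granule membrane protein of the phosphatase family, at 0.95. Scg3 and Cpe both had S100a16 and Sst among their 3 most alike genes, Sst at 0.91 with each. For Ddc the closest was Cblc at 0.98, and for Tph1 it was Pla2g12a at 0.94. Chga was closest to Uhrf1bp1 at 0.92, Scg2 to Tspan13 at 0.91 and Scg5 to Pdgfb at 0.92.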

How the data were processed

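Poly(A) RNA of 12 organoid libraries was sequenced as paired ends, per the labels' protocols. The authors deposited 1 table of TPM values per library. Salmon 1.8.0 and the mouse build GRCm39 are named per the submitters' processing notes, while no source used here names the gene annotation or the strand setting. Read depth is therefore unknown, and a TPM depends on all other rows of its library. Each table held 32587 rows, of which 11952 reached 1 TPM in 3 or more libraries and entered the tests.

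From these values log2(TPM + 1) was computed and fitted with limma 3.58.1 (R 4.3.3) with trend and robust moderation, with 4 group means over all 12 libraries. The 6 comparisons were two-sided, and p-values were Benjamini-Hochberg adjusted over all tested rows within each, at a threshold of 0.05. The pseudocount of 1 understates changes of low genes. Ratios to Chga were compared with exact permutation tests in SciPy 1.17.1. The scripts were tested on simulated data. The members and lists were chosen with earlier results of these data known. By the rule for named genes, all members are named, any tested hormone or transcription factor may be, and of the other lists up to 4 genes with the smallest p in DCA against DMSO, with exceptions stated where they occur. The RefSeq promoter windows are of GRCm38.p6, another build than the authors', and served only for sequence.

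The alternatives were median-ratio scaling, no filter, a replicate block, a pseudocount of 0.1, no trend or robust moderation, only the 6 libraries of a comparison, mitochondrially encoded (13) and ribosomal RNA (2) rows left out, CDCA replicate 3 and DMSO replicate 1 left out together, and each library left out in turn.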

Additional observations from a re-analysis of the deposited data

How the results depend on the processing

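Pcsk1 in the 3 comparisons with DCA and Chgb in DCA against DMSO kept their calls in every alternative. Leaving out each library in turn, the count of members called lay between 2 and 5 for DCA against DMSO (4 with all libraries), between 1 and 3 for DCA against CA (2 with all libraries, 3 without DMSO replicate 1 or 2), and between 1 and 3 for DCA against CDCA (2), and it stayed at 0 for the other comparisons. With mitochondrially encoded and ribosomal RNA rows left out, 5 members were called in DCA against DMSO and 4 in DCA against CA. Calls over all rows rose as well, to 5756 from 4545 in DCA against DMSO and to 2705 from 1761 in DCA against CA. In this setting the rescaled sum of the members was 1113 TPM with CA, 1076 TPM with CDCA and 848 TPM with DCA, against 1149 TPM with DMSO. The same setting turned Pcbd1 in DCA against DMSO to -0.14 (limma adjusted p = 0.0270), while the values of the other settings were not called, and the cause was not tested. With CDCA replicate 3 and DMSO replicate 1 left out, 9 enterocyte and 3 serotonin and monoamine genes were called higher and 9 stem cell genes lower in CA against DMSO, all at 0 with all libraries. In that comparison 964 rows were then called, against 69 with all libraries. Of 756 member differences recomputed, 734 kept their side of the threshold, 13 lost a call and 9 gained one; 52 changed sign, none of them called.

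The labels share replicate numbers but name no common culture or day. Deviations from the group means correlated between same-numbered libraries at -0.378 to 0.109 (median -0.028). Between libraries of other numbers they correlated at -0.251 to 0.426 (median 0.025). Same-numbered libraries were thus no more alike than others, and whether they share a culture or day is unknown. With the replicate block, 4 members were called in DCA against DMSO, 2 in DCA against CA and 2 in DCA against CDCA, the same counts as without it. Over all rows the block gave 4134, 1270 and 2910 calls in these comparisons, against 4545, 1761 and 3322 without it.

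Read depth is unknown, and no counting error is given. The 3 libraries a group limit the precision of single members, most for Tph1, whose interval in DCA against DMSO ran from -0.64 to 0.20.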
